A study of Mus musculus with 108 samples.

Results

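The cerebellum (CB) of adult Cul3+/- mutant mice was compared with that of wild-type (WT) mice by bulk RNA sequencing. The libraries were those of the adult period (P35) that the sample labels assign to CB, and 10 of the 108 libraries of the series entered the comparison, 5 WT and 5 Cul3+/-, each from 1 mouse. Another 2 adult CB libraries were left out because the labels and the quality table of the study give the genotype of their mice in opposite ways. The study profiled 3 periods and 3 brain regions to learn how loss of 1 Cul3 copy alters transcript levels, and the adult mice also gave cortex (CX) and hippocampus (HIP) libraries. The mutant mice carried a germline heterozygous frameshifting insertion of 1 bp in exon 6 of Cul3, made with CRISPR/Cas9 and present in every cell type, and they descended from a single founder bred to WT mice. Both genotypes were adult, on the background the labels spell C56Bl/6N (C57BL/6N in the methods), and received no treatment. The labels give no sex. In these 10 libraries, mice with the same replicate number have adjacent mouse numbers, but the labels do not say whether they shared a litter or a day.

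Cul3 is the scaffold of a family of E3 ubiquitin ligases. It binds the RING protein Rbx1 at one end and, at the other, a BTB-domain adaptor that brings the substrate, so that the substrate is ubiquitinated and often degraded by the proteasome. Known substrates include the small GTPase RhoA, recruited through Kctd13 and Tnfaip1, and the oxidative stress factor Nrf2, recruited through Keap1. Granule cells make up most of the neurons of the adult CB, which also holds Purkinje cells, inhibitory interneurons, Bergmann glia, myelinating oligodendrocytes and the neurons of the deep nuclei.

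The edited site is printed because every mutant library differs from the WT libraries by design at this position alone. It lies at chr1:80287041-80287063 of GRCm38, on the minus strand, in exon 6 of the 16 exons of the reference transcript, and the cut falls in codon 245 of 768. Capitals mark the PAM, the short motif that Cas9 needs beside its target.
Cul3 target site: ggattaatgaggaaatagagCGG

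The libraries held between 29148692 and 41106348 counts. WT replicate 3 stood apart from the others: it scored 60.6 on the first principal component of all genes (31.95% of the variance), against −2.24 to 9.22 in the other WT libraries and −27.6 to −0.705 in the mutant libraries. It also had 5.94% of its counts in mitochondrial rRNA, against 2.91% to 3.26% in the other WT libraries, and 4.90% in genes of the misc_RNA biotype, against 8.07% to 11.99%. The defining markers of the labelled tissue were high in all 10 libraries, with a mean log2 CPM (the count scaled to the size of its library) of 8.61 to 8.88 for 18 granule cell genes against 0.83 to 1.495 for 11 forebrain genes. Choroid plexus genes, from tissue that adjoins CB, had mean log2 CPM of −0.33 to 5.35 in WT and −0.11 to 4.51 in mutant libraries. Within a genotype, no pair of libraries was alike enough to be the same library deposited again. In bulk tissue, fewer cells of a type and less RNA per cell cannot be told apart.

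Cul3 (ENSMUSG00000004364, chr1:80264923-80340480, minus strand) was measured at 190, 198, 159, 206 and 195 CPM in the WT libraries. In the mutant libraries it stood at 113, 109, 115, 116 and 114 CPM. Every mutant library lay below every WT library, and the lowest WT value was that of WT replicate 3. Cul3 transcript fell to 60.0% of the WT mean, from 189 ± 18.1 (SD, n = 5) to 114 ± 2.70 CPM (SD, n = 5), or by −0.74 on the log2 scale (SE 0.07, adjusted p = 0.00263, edgeR quasi-likelihood test with Benjamini-Hochberg adjustment). The two-sided exact permutation test gave p = 0.00794, the smallest that the 252 arrangements of 5 against 5 allow. Without WT replicate 3 the log2 fold change of Cul3 was −0.80. In the libraries left out, Cul3 was at 210 CPM in the library labelled WT and at 110 CPM in the library labelled mutant.

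Cul3 was the only gene that passed the quasi-likelihood test at an adjusted p of 0.1, 1 of 17110 genes tested (0.00584%). No label states that the replicate number marks a pairing. With that number as a block, 0 genes were called and Cul3 had an adjusted p of 0.114 (edgeR quasi-likelihood test). Between the quasi-likelihood test and weaker criteria the counts differed widely. At an unadjusted p under 0.05, 977 genes were higher (5.71%) and 1482 lower (8.66%) in the mutant libraries. DESeq2 at an adjusted p of 0.1 called 78 genes higher (0.456%) and 140 lower (0.818%), and edgeR's likelihood ratio test called 29 higher (0.169%) and 121 lower (0.707%). The log2 CPM of the 2 genotypes did not overlap for 219 genes with the higher values in the mutant (1.28%) and for 233 with the lower (1.36%). Outside Cul3, the counts below describe how the measured differences fall among classes of genes, and no single gene in them passed the quasi-likelihood test.

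Transcripts that do not look like mature messages lay mostly on the lower side. The biotypes TEC (models that GENCODE marks as awaiting an experiment) and sense_intronic cover mainly short unspliced models that lie inside introns of longer genes, and 995 such unspliced-like genes were tested. Of these, 928 had a negative log2 fold change. At an unadjusted p under 0.05, 519 were lower (52.2%) and 6 higher (0.603%), against 8.66% and 5.71% of all genes. DESeq2 called 103 lower and 1 higher, out of 140 lower and 78 higher over all genes. The 103 became 14 without WT replicate 3, 7 without mutant replicate 3 or 6 and 262 without mutant replicate 2. The groups did not overlap for 106 unspliced-like genes (10.7%), all lower in the mutant, against 1.36% of all genes. The median log2 fold change of the unspliced-like genes was −0.59, against 0.00094 over all genes tested. The 912 TEC genes had a median of −0.58 and the 83 sense_intronic genes one of −0.63.

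Protein-coding genes lay on both sides, in proportions that depended on the criterion. Of 14354 tested, 921 were higher (6.42%) and 826 lower (5.75%) at an unadjusted p under 0.05, and their median log2 fold change was 0.015. DESeq2 called 74 of them higher and 32 lower, and the groups did not overlap for 212 with the higher and 107 with the lower values in the mutant. The DESeq2 counts moved with single libraries, from 10 higher and 3 lower without mutant replicate 6 to 268 higher and 266 lower without mutant replicate 2. Among the remaining classes, 447 lincRNAs had a median of −0.086, with 16 higher and 53 lower. The medians of 53 snoRNAs (0.31), 25 snRNAs (0.34) and 12 genes of the misc_RNA biotype (0.34) were positive, with 1, 1 and 2 genes higher and none lower at an unadjusted p under 0.05. Without WT replicate 3, 966 protein-coding genes were higher and 500 lower, and 4 unspliced-like genes were higher and 415 lower.

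**Figure D1:**
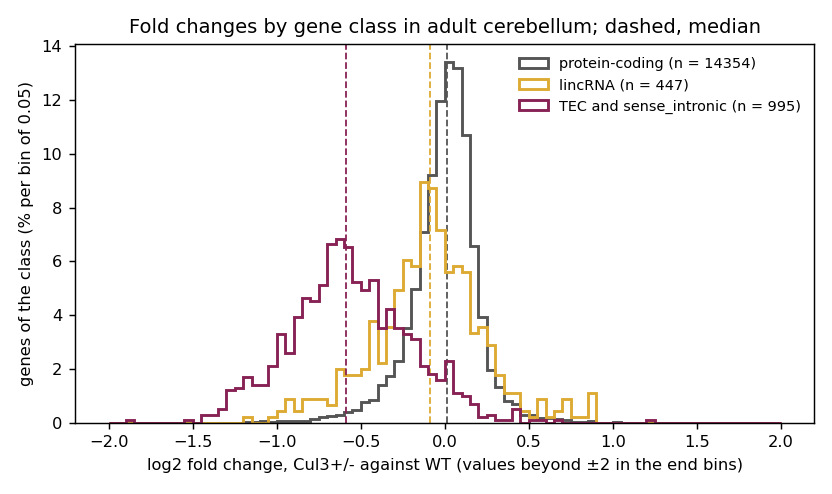
Share of genes (%, y axis) in each bin of 0.05 of the log2 fold change of Cul3+/- against WT (x axis) for protein-coding genes, lincRNAs and TEC and sense_intronic genes, with dashed lines at the medians. The TEC and sense_intronic genes are centred on −0.59, while the protein-coding genes are centred on 0.015.

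The share of all counts that fell in unspliced-like genes was 0.177%, 0.190%, 0.248%, 0.204% and 0.230% in the WT libraries. In the mutant libraries it was 0.163%, 0.180%, 0.139%, 0.160% and 0.131%. Mutant replicate 2 lay above WT replicate 1, so the genotypes overlapped. The mean share was 0.210% ± 0.0291 in WT and 0.155% ± 0.0196 in mutant libraries (SD, n = 5 each), a difference of −0.0551 percentage points (two-sided exact permutation test, p = 0.0159, 0.0635 after Benjamini-Hochberg adjustment over 12 shares of counts). With the libraries paired by replicate number, the exact permutation test gave p = 0.0625, the smallest that 5 pairs allow. The lincRNA share was 1.79% ± 0.141 in WT and 1.40% ± 0.267 in mutant libraries (SD, n = 5 each, exact permutation test, p = 0.0317, adjusted 0.0952). The share of mitochondrial rRNA was 3.67% ± 1.28 in WT and 2.69% ± 0.618 in mutant libraries (SD, n = 5 each, exact permutation test, p = 0.127, adjusted 0.218), and in WT it rested on WT replicate 3 at 5.94%, with the other WT libraries at 2.91% to 3.26%. That of misc_RNA genes was 8.61% ± 2.54 and 11.3% ± 1.48 (SD, n = 5 each, exact permutation test, p = 0.0794, adjusted 0.159). How far the RNA makeup of the libraries and the level of unspliced-like genes depend on each other was not tested.

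In the other regions of the same mice the mean shares of the genotypes lay close together. The share was 0.194% ± 0.0353 in WT and 0.201% ± 0.0424 in mutant CX (SD, n = 5 each, exact permutation test, p = 0.825). In HIP it was 0.132% ± 0.0240 and 0.133% ± 0.0144 (SD, n = 5 each, exact permutation test, p = 0.929). Taken as CB minus the mean of CX and HIP within a mouse, the share was 0.0469 percentage points in WT and −0.0125 in mutant mice, and this difference between genotypes gave p = 0.0397 in the exact permutation test. TEC genes alone gave 0.0345 and −0.0177 (exact permutation test, p = 0.0317). In P7 CB the share was 0.153% in WT and 0.172% in mutant libraries (n = 6 each, exact permutation test, p = 0.227), and in embryonic (E17.5) CB it was 0.211% and 0.239% (n = 6 each, exact permutation test, p = 0.201). In E17.5 CX the mutant share was the lower one, at 0.262% in WT and 0.217% in mutant libraries (n = 6 each, exact permutation test, p = 0.182), as it was in P7 CX at 0.234% and 0.210% (n = 6 each, exact permutation test, p = 0.344). In HIP it was 0.139% and 0.170% at P7 and 0.23% and 0.25% at E17.5 (n = 6 each, exact permutation test, p = 0.316 and 0.426).

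**Figure D2:**
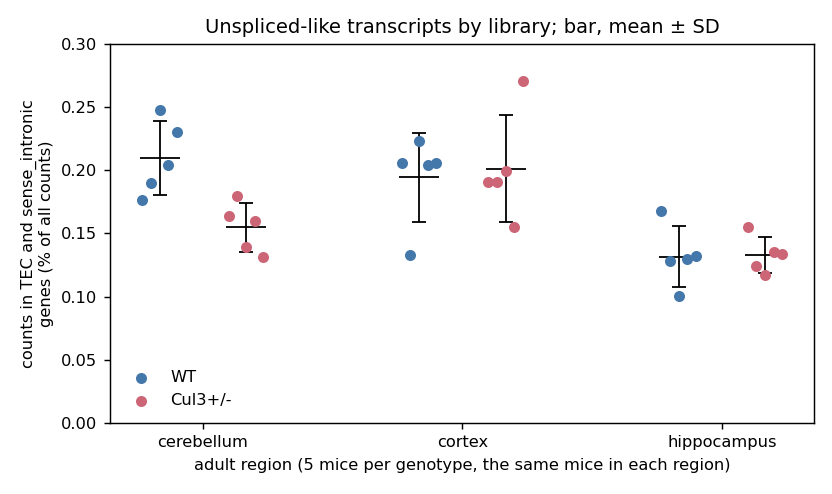
Percent of all counts in TEC and sense_intronic genes (y axis) in each library of the 3 adult regions (x axis), 5 mice per genotype, with the mean and SD. In CB the mutant mean of 0.155% lies below the WT mean of 0.210%, while in CX and HIP the means of the genotypes lie within 1 SD of each other.

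Most unspliced-like genes lie inside a longer gene, and they were compared with it. Of the 995, 733 lie within a protein-coding gene on the same strand, and 706 of these have a single exon and 706 lie wholly within introns. Of the 733, 444 were lower at an unadjusted p under 0.05, with a median log2 fold change of −0.65. The 47 that lie on the opposite strand of a protein-coding gene had 10 lower and a median of −0.25, and the 215 outside protein-coding genes had 65 lower and a median of −0.29. For 730 of them the host gene was tested too, 467 hosts in all. In 699 of the 730 pairs (95.8%) the unspliced-like gene had the lower log2 fold change, with a median of −0.65 against −0.058 over the hosts. Of the 467 hosts, 67 were lower (14.3%) and 11 higher (2.36%) at an unadjusted p under 0.05, so the hosts lay on the lower side too. Of 13372 protein-coding genes that hold no unspliced-like gene on their strand, 732 were lower and 883 higher. The median log2 fold change of those genes was 0.019. Among the 443 pairs in which the unspliced-like gene was lower, the host was also lower in 86 and higher in 3. Members of a pair share a locus, and several unspliced-like genes can share a host, so the pairs are not independent.

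The library medians show how the difference was spread over the mice. Relative to the mean of the WT libraries, the median log2 CPM of the unspliced-like genes was −0.20, −0.14, 0.24, −0.033 and 0.17 in WT replicates 1, 2, 3, 5 and 6. In mutant replicates 1, 2, 3, 5 and 6 it was −0.41, −0.22, −0.69, −0.37 and −0.89. All 5 mutant medians were below all 5 WT medians, although mutant replicate 2 and WT replicate 1 were nearly level.

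Under the naming rule, 4 TEC genes were singled out among those lower. 2900027M19Rik, in Fam155a (host log2 fold change 0.04), was at 2.07, 1.95, 3.15, 2.29 and 3.94 CPM in WT and at 1.36, 1.33, 1.21, 1.21 and 1.11 CPM in mutant libraries, a log2 fold change of −1.10 (SE 0.20). Gm37420 was at 2.28, 1.92, 2.68, 3.20 and 2.86 CPM in WT and at 1.67, 1.61, 1.26, 1.41 and 1.41 CPM in mutant libraries (−0.82, SE 0.15). The mutant values were the tighter of the pair in each gene, and the rule itself required that the groups not overlap. Gm44435, in Ctnna2 (host 0.06), differed by −0.96 on the log2 scale (SE 0.19) and Gm42972, in Ank2 (host −0.21), by −1.19 (SE 0.24). All 4 had an adjusted p of 0.293 in the edgeR quasi-likelihood test with Benjamini-Hochberg adjustment, and DESeq2 gave adjusted p of 0.00249 to 0.0121. No unspliced-like gene was higher without overlap at a mean of 1 CPM or more. The sense_intronic gene Gm48161, looked up after its values were seen, was called higher by DESeq2 with a log2 fold change of 1.23, but mutant replicate 5 (1.05 CPM) lay below WT replicate 1 (1.36 CPM).

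Among protein-coding genes, 12 higher and 12 lower ones were named by the smallest p of the quasi-likelihood test among genes at a mean of at least 1 CPM whose groups did not overlap. That the groups of these genes do not overlap follows from the rule and is not a result. The higher ones include proteins of vessels, glia and the extracellular matrix. Tmem204, a claudin-like membrane protein of endothelial cells, was at 13.6, 13.98, 12.3, 14.2 and 13.5 CPM in WT libraries. It was at 18.7, 16.7, 18.8, 17.6 and 19.3 CPM in mutant libraries, which is 0.43 higher on the log2 scale (SE 0.06, adjusted p = 0.200, edgeR quasi-likelihood test with Benjamini-Hochberg adjustment). Rgs4, which speeds the shutdown of G protein signalling, was at 16.1, 16.3, 15.98, 17.3 and 17.8 CPM in WT and at 22.5, 20.2, 22.9, 26.6 and 22.8 CPM in mutant libraries (0.46, SE 0.07). The other 10 genes besides Tmem204 and Rgs4, like Rgs4 itself, had an adjusted p of 0.293 in the same test. Both genes kept a gap between the genotypes of more than 1 SD of either group.

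Lpar1, a receptor for lysophosphatidic acid found on myelinating oligodendrocytes, was at 54.6, 45.1, 48.3, 55.0 and 59.0 CPM in WT and at 76.8, 62.1, 73.6, 67.3 and 74.6 CPM in mutant libraries (0.44, SE 0.08). Tmem119, a marker of microglia, was at 4.28, 3.77, 4.09, 4.71 and 4.23 CPM in WT and at 5.44, 5.43, 6.07, 5.99 and 5.84 CPM in mutant libraries (0.45, SE 0.08). The lowest mutant value of Lpar1 was that of mutant replicate 2, which was also among the lowest of the Tmem119 values. Vtn, the matrix protein vitronectin made in brain by pericytes, had a log2 fold change of 0.26, Col4a6, a basement membrane collagen, of 0.52, and Tnfrsf11b, the decoy receptor osteoprotegerin, of 0.43. Tnfaip6, a hyaluronan-binding protein, was at 0.55, and Wif1, a secreted inhibitor of Wnt ligands, at 0.56. The set was completed by Cabp7, a neuronal calcium sensor (0.31), Fbxo2, the substrate receptor of a Cul1 ligase for glycoproteins (0.33), and the zinc finger gene Zfp97 (0.68). Zfp97 was at 1.26, 1.85, 1.57, 1.85 and 2.32 CPM in WT and at 2.79, 2.88, 2.86, 2.88 and 2.82 CPM in mutant libraries, so its mutant values were almost level while the WT values were spread. DESeq2 called all 12 higher at an adjusted p of 0.1 (74 of the 14354 protein-coding genes tested).

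The 12 lower genes included a protein of motile cilia, proteins of the nucleus and of signalling, and a mitochondrial carrier. Xkr6, a member of the XK family, was at 19.4, 18.5, 23.9, 26.2 and 23.3 CPM in WT and at 17.6, 16.6, 14.9, 16.5 and 15.6 CPM in mutant libraries (log2 fold change −0.46, SE 0.10). Hydin, a protein of the central pair of motile cilia, was at 5.37, 4.75, 6.13, 5.31 and 4.37 CPM in WT and at 4.15, 3.79, 3.62, 3.70 and 3.26 CPM in mutant libraries (−0.48, SE 0.11). The gap between the genotypes was narrow for both genes. In the list of 16 ependymal and motile cilium genes, Hydin was the only one lower at an unadjusted p under 0.05. None was higher, and the median log2 fold change of the list was 0.0012. Syne2, a very large protein that links the nucleus to the cytoskeleton, had a log2 fold change of −0.30, Zcchc7, a factor of nuclear RNA surveillance, of −0.32, and the BTB zinc finger gene Zbtb37 of −0.35. The others were Slc25a35 (a mitochondrial carrier, −0.60), Alpk2 (−0.55), Nlrp10 (−0.50), Ptpn22 (a phosphatase of immune cells, −0.48), D10Wsu102e (−0.46), Nek2 (a centrosomal kinase, −0.33) and Strip2 (−0.23). All 12 had an adjusted p of 0.293 in the edgeR quasi-likelihood test with Benjamini-Hochberg adjustment. WT replicate 3 was the highest WT library for Slc25a35, Hydin, Alpk2, Nlrp10, Zbtb37 and D10Wsu102e, and without it their log2 fold changes were −0.50, −0.42, −0.46, −0.43, −0.27 and −0.35.

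**Figure D3:**
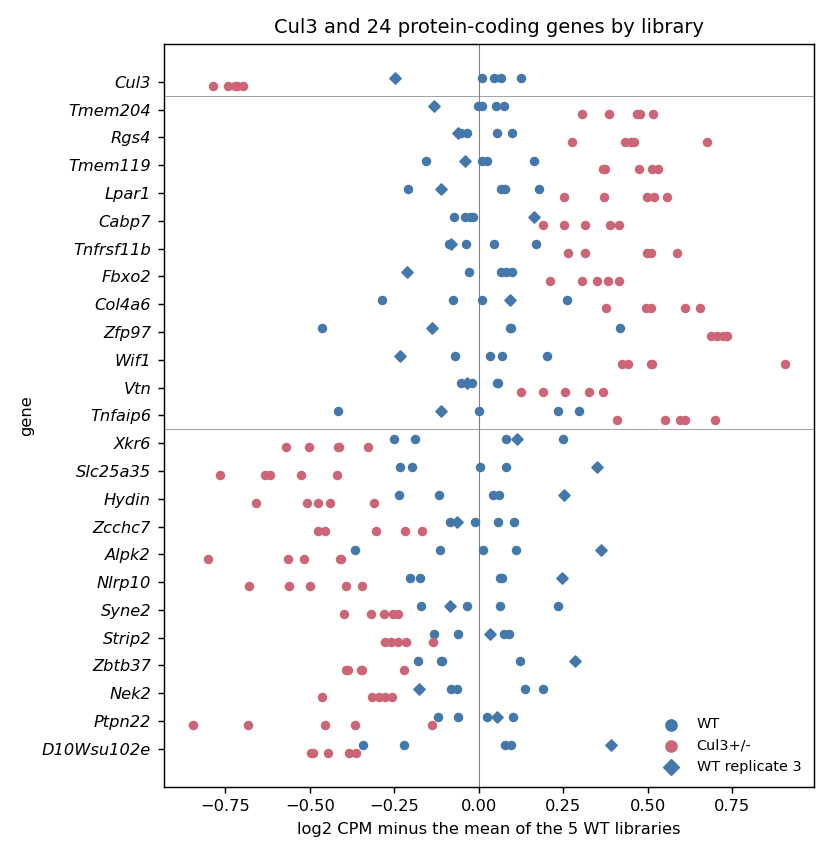
Log2 CPM of Cul3 and the 24 named protein-coding genes in each library, minus the mean of the 5 WT libraries (x axis), with WT libraries in blue, Cul3+/- libraries in red and WT replicate 3 as a diamond. Only Cul3, with a log2 fold change of −0.74, passed the quasi-likelihood test.

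A few genes outside the rule were looked up after their values had been seen. Depp1, a gene induced by FOXO factors, was at 0.272, 0.261, 0.503, 0.364 and 0.457 CPM in WT and at 2.35, 1.33, 1.18, 0.459 and 1.52 CPM in mutant libraries, a log2 fold change of 1.88. Txnip, which binds and inhibits thioredoxin, was at 16.8, 17.97, 19.1, 18.4 and 17.6 CPM in WT and at 25.9, 25.3, 31.5, 18.7 and 23.8 CPM in mutant libraries (0.48). Sgk1, a kinase induced by glucocorticoids, was at 57.8, 59.4, 52.7, 68.1 and 62.8 CPM in WT and at 85.5, 87.3, 107, 59.9 and 87.2 CPM in mutant libraries (0.50). In all of them mutant replicate 5 was within the range of the WT libraries while the other 4 mutant libraries were above it. DESeq2 called Depp1, Txnip and Sgk1 higher, with adjusted p of 0.00397, 0.028 and 0.0427, and the quasi-likelihood test did not (adjusted p of 0.293 each with Benjamini-Hochberg adjustment). Without mutant replicate 5, Depp1 was called by the quasi-likelihood test beside Cul3.

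The other parts of the Cul3 ligase showed few differences. Of 31 genes of the ligase core and the regulators of cullins, Cul3 was the only one lower at an unadjusted p under 0.05 and Senp8, which processes and removes Nedd8, the only one higher (log2 fold change 0.20). Rbx1, the RING subunit, was at 0.11 (SE 0.09). Of 43 BTB adaptors, 3 were higher and 1 lower, with a median of 0.016, which is within the background of all genes. Klhl13 was at 30.1, 30.3, 26.1, 31.2 and 30.3 CPM in WT and at 39.2, 32.3, 37.6, 33.4 and 34.4 CPM in mutant libraries (0.26, SE 0.07), Klhl2 had a log2 fold change of 0.19 and Klhl20 one of −0.14. The RhoA adaptors Kctd13 (0.03) and Tnfaip1 (−0.11) differed by no more than about their SE of 0.06 and 0.09.

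Of 47 genes of the actin cytoskeleton and of the small GTPases that act on it, 7 were higher and 4 lower, with a median of 0.024. Rhoa transcript was at 118 ± 13.9 CPM in WT and 113 ± 7.50 CPM in mutant libraries (SD, n = 5 each), or −0.07 on the log2 scale (SE 0.08). Rhob, the immediate-early relative of Rhoa, was at 107, 87.6, 107, 101 and 104 CPM in WT and at 129, 117, 118, 107 and 115 CPM in mutant libraries (0.21, SE 0.07), and Myl9, a myosin light chain of smooth muscle, was at 0.29. The count of lower genes in this list ran from 1 (without WT replicate 5 or without mutant replicate 1) to 8 (without WT replicate 6), and that of higher genes from 4 to 10.

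Among 32 targets of Nrf2, the factor that Keap1 and Cul3 keep low, 12 were higher and 1 lower at an unadjusted p under 0.05, against 5.71% and 8.66% of all genes, and their median log2 fold change was 0.12. Mgst1, a microsomal glutathione transferase, was at 8.08, 10.2, 6.5996, 9.34 and 10.3 CPM in WT and at 12.52, 11.8, 13.5, 11.7 and 14.8 CPM in mutant libraries (0.53, SE 0.12). Tkt, an enzyme of the pentose phosphate pathway, was at 106, 96.6, 107, 99.9 and 103 CPM in WT and at 118, 114, 117, 115 and 118 CPM in mutant libraries (0.18, SE 0.04). Neither gene overlapped between the genotypes, nor did Ftl1, the ferritin light chain (0.18, SE 0.05). The classical targets Nqo1 (0.19, SE 0.14) and Hmox1 (0.12, SE 0.12) did not pass an unadjusted p of 0.05. The summed level of the list ran from 1812 to 1981 CPM in WT and from 1963 to 2207 CPM in mutant libraries, with mutant replicate 2 the lowest mutant library in the mean log2 CPM. With 1 library left out, 10 to 14 members were higher. No member passed the quasi-likelihood test over all genes, and DESeq2 called 4 higher.

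Glial and vascular lists lay on the higher side. Over all genes tested, 5.71% were higher and 8.66% lower at an unadjusted p under 0.05. Of 22 oligodendrocyte and myelin genes, 9 were higher (40.9%) and none lower by this criterion, with a median log2 fold change of 0.30. Ermn, a cytoskeletal protein of myelinating oligodendrocytes, was at 68.3, 38.7, 59.5, 73.6 and 78.7 CPM in WT and at 91.8, 73.9, 93.2, 99.3 and 86.5 CPM in mutant libraries (0.48, SE 0.16). WT replicate 2 was the low library, and the ranges of the genotypes overlapped. Mbp, a major myelin protein gene, was at 0.16 (SE 0.22), Gjb1 at 0.44 and Ugt8a, an enzyme of myelin lipid synthesis, at 0.40.

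The mean log2 CPM of the myelin list was 6.42, 5.61, 6.63, 6.35 and 6.48 in WT and 6.67, 6.46, 6.64, 6.62 and 6.63 in mutant libraries. Without WT replicate 2 the median log2 fold change of the list was 0.18, with 9 members higher, and without WT replicate 3 it was 0.36, with 17 higher. With any 1 library left out, between 4 (without mutant replicate 1 or 6) and 17 members were higher and none was lower. In the oligodendrocyte precursor list 1 of 12 was higher (8.33%, against 5.71% of all genes), namely Lhfpl3 (0.23, SE 0.06). Pdgfra, which defines these cells, was at 0.08 (SE 0.08).

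Of 17 microglial genes, 8 were higher (47.1%, against 5.71% of all genes) and none lower, with a median of 0.20. Besides Tmem119, C1qc of the complement system was at 9.41, 7.93, 8.14, 9.13 and 9.38 CPM in WT and at 11.7, 9.86, 10.6, 10.3 and 11.95 CPM in mutant libraries (0.31, SE 0.08). P2ry12, a purine receptor of resting microglia, was at 0.19 (SE 0.08). The summed level of the list ran from 146 to 180 CPM in WT and from 173 to 203 CPM in mutant libraries, and between 4 (without WT replicate 2 or without mutant replicate 1) and 10 members were higher with 1 library left out. DESeq2 called 3 of the list higher.

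Of 13 pericyte and smooth muscle genes 4 were higher (30.8%, against 5.71% of all genes), Vtn, Myl9 and Rgs5 (0.18) among them. Their median was 0.22, while Pdgfrb, which defines pericytes, was at 0.0030 (SE 0.09). Of 16 endothelial genes 3 were higher (18.8%), namely Slc16a1 (0.21), Itm2a (0.18) and Ly6c1 (0.22, or 0.14 without WT replicate 3). The endothelial median was 0.12, with Cldn5, a tight junction protein, at 0.19 (SE 0.12). Bergmann glia and astrocytes had 2 of 17 higher (11.8%), the Bergmann glia gene Gdf10 (0.20) and the calcium-binding protein gene S100b (0.19). No member of the lists of meningeal fibroblasts (15), choroid plexus (13), blood (6) or immediate early genes (18) passed an unadjusted p of 0.05 in either direction. In the choroid plexus list Ttr was at −0.28 (SE 1.84).

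The enzymes of cholesterol synthesis, a pathway on which myelin formation draws, had 10 of 25 genes higher (40%) and none lower, with a median of 0.13. Of all genes, 5.71% were higher. Cyp51 was at 85.5, 71.6, 71.0, 66.4 and 69.5 CPM in WT and at 102, 78.5, 99.1, 81.9 and 83.1 CPM in mutant libraries (0.29, SE 0.09). Msmo1 was at 0.32, Hmgcs1 at 0.25 and Fdps at 0.24. WT replicate 1 and mutant replicates 1 and 3 were the highest libraries of their groups for Cyp51. Between 5 (without WT replicate 5 or without mutant replicate 1) and 12 members were higher with 1 library left out.

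The study chose a list of extracellular matrix genes on these samples, so its direction is not independent evidence. Of the 16 members tested, 4 were higher (25%) and 1 lower (6.25%), against 5.71% and 8.66% of all genes. The median was 0.15, and Tnfrsf11b, Vtn and Vwa1 (0.26) led the list. Of 41 collagen genes, a list added after gene values had been seen, 2 were higher (4.88%) and 4 lower (9.76%), near the shares of all genes.

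Markers of the main neurons of the CB showed small differences. Over all genes, 5.71% were higher and 8.66% lower. Of 18 granule cell genes none was higher and 2 were lower (11.1%; Reln, −0.23, and Fat2, −0.35, or −0.19 without WT replicate 3), with a median of −0.10. The log2 fold change was negative for 15 of the 18. Without WT replicate 3, 4 granule cell genes were lower and the median was −0.092. Gabra6, the GABA-A receptor subunit that defines mature granule cells, was at 721 ± 80.8 CPM in WT and 732 ± 36.6 CPM in mutant libraries (SD, n = 5 each, 0.02, SE 0.08). Of 18 Purkinje cell genes 1 was higher, Aldoc (0.30), which marks stripes of Purkinje cells and is also an astrocyte gene, and 1 was lower, Gpr63 (−0.61). Calb1 and Pcp2, which define Purkinje cells, were at 0.08 (SE 0.10) and 0.07 (SE 0.07). The WT values of Gpr63 were 21.98, 24.7, 53.4, 35.8 and 21.4 CPM and the mutant values 22.2, 16.4, 22.3, 19.98 and 22.2 CPM. The high WT value is that of WT replicate 3, without which the log2 fold change of Gpr63 was −0.34.

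The list of projection and brainstem neurons, which covers the deep nuclei and the adjoining brainstem, had 5 of 16 genes higher (31.25%) and none lower, with a median of 0.14. Of all genes, 5.71% were higher. The list was split in direction, with 9 positive and 7 negative log2 fold changes, the lowest at −1.62. Of its 28 members, 12 were not tested. Th, tyrosine hydroxylase, was at 4.08, 5.84, 7.87, 6.24 and 5.803 CPM in WT and at 9.73, 7.45, 10.1, 7.96 and 12.3 CPM in mutant libraries (0.67, SE 0.17). Slc17a6, the vesicular glutamate transporter of deep nuclear and brainstem neurons, was at 0.49 (SE 0.22), Spp1 at 0.43 and Nefl, the light neurofilament subunit, at 0.24. Mutant replicate 2 lay below WT replicate 3 for Th. Without WT replicate 3, 9 members were higher and the median was 0.41. Without mutant replicate 5, 2 were higher and 2 lower and the median was 0.072. Of the neurofilament genes, Nefh was at 97.4 ± 8.89 CPM in WT and 111 ± 9.33 CPM in mutant libraries (SD, n = 5 each, 0.19, SE 0.08, adjusted p = 0.343, edgeR quasi-likelihood test with Benjamini-Hochberg adjustment), and Nefm was at −0.22 (SE 0.24) and, without WT replicate 3, at 0.11. In the list of 11 intermediate filament genes 4 were higher (36.4%, against 5.71% of all genes) and none lower.

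Genes of the presynapse and of calcium channels lay on the lower side, and this rested in part on WT replicate 3. Of 26 synaptic vesicle genes 8 were lower (30.8%, against 8.66% of all genes) and 1 higher, with a median of −0.14. Syn1, which tethers vesicles, was at 34.3, 33.9, 130, 78.7 and 36.6 CPM in WT and at 36.5, 34.4, 33.7, 42.0 and 34.7 CPM in mutant libraries, a log2 fold change of −0.79 (SE 0.35) in which WT replicates 1, 2 and 6 lay within the mutant range, and −0.34 without WT replicate 3. Unc13a, which primes vesicles for release, was more even, at 161, 166, 180, 175 and 170 CPM in WT and at 115, 161, 120, 141 and 146 CPM in mutant libraries (−0.32, SE 0.09). Without WT replicate 3, 2 of the list were lower and the median was −0.086, without WT replicate 5, 1 was lower, and without WT replicate 6, 13 were lower.

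Voltage-gated calcium channels had 5 of 15 genes lower (33.3%, against 8.66% of all genes) and none higher, with a median of −0.21. Cacna1a, the P/Q-type channel of Purkinje and granule cells, was at 278, 278, 543, 351 and 265 CPM in WT and at 249, 284, 248, 255 and 237 CPM in mutant libraries (−0.43, SE 0.18). WT replicate 3 was again the highest library, and without it Cacna1a was at −0.20, 2 members were lower and 1 higher, and the median was −0.085. Between 0 (without WT replicate 5 or without mutant replicate 1, 3 or 6) and 8 (without WT replicate 6) were lower with 1 library left out. Sodium and potassium channels had 6 of 41 lower (14.6%) and 1 higher (median −0.078), but without WT replicate 3 the balance turned to 3 lower and 4 higher (−0.019). The higher one with all libraries was Kcnt2, a sodium-activated potassium channel, at 0.679, 0.783, 0.704, 0.520 and 0.629 CPM in WT and at 0.987, 1.16, 1.08, 1.02 and 1.06 CPM in mutant libraries (0.68, SE 0.14). Ionotropic glutamate receptors had 2 of 17 lower (Grin2a, −0.27, and Grin1, −0.30), which at 11.8% is near the 8.66% of all genes. Without WT replicate 3, 1 was lower, the median went from −0.14 to −0.058 and Grin1 was at −0.17. Of the 13 GABA-A receptor genes 1 was higher, Gabrg1 (0.33), and 1 lower (7.69% each way).

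All 14 long noncoding RNAs of a list of transcripts that stay in the nucleus had negative log2 fold changes, with a median of −0.29. At an unadjusted p under 0.05, 4 were lower (28.6%, against 8.66% of all genes) and none higher. Kcnq1ot1, the antisense RNA of the imprinted Kcnq1 locus, was at 47.8, 52.9, 73.9, 70.8 and 75.3 CPM in WT and at 44.5, 45.0, 36.0, 47.0 and 34.3 CPM in mutant libraries (−0.63, SE 0.14). Its groups did not overlap, but those of Malat1, a component of nuclear speckles, did (−0.46, SE 0.22). The mutant libraries of Malat1 were at 5229.5, 10831, 5671, 7106 and 4878 CPM, of which mutant replicates 2 and 5 lay within the WT range of 6431 to 10964 CPM. Of 43 splicing factor genes 5 were lower (11.6%, against 8.66% of all genes) and 1 higher, with Srrm1 (−0.52), Luc7l2 (−0.26) and Son (−0.25) the leading ones. Without mutant replicate 2, 16 were lower.

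Families of short housekeeping genes lay on the higher side. These lists, with the mitochondrially encoded mRNAs, were added after gene values had been seen. At an unadjusted p under 0.05, 5.71% of all genes were higher and 8.66% lower. Among protein-coding genes with a summed exon length under 2 kb, 15.8% were higher and 1.37% lower. Of 80 cytosolic ribosomal protein genes 34 were higher (42.5%) and none lower, with a median of 0.18. Of 77 nuclear genes of oxidative phosphorylation 20 were higher (25.97%) and none lower (median 0.16). Of 37 proteasome subunits 10 were higher (27.03%) and none lower (median 0.15). Of 13 mitochondrially encoded mRNAs none was higher and 3 were lower (23.08%, median −0.28). WT replicate 3 was the lowest WT library in the 3 nuclear lists and the highest in the mitochondrially encoded one. Its mean log2 CPM of the ribosomal protein genes was 6.22, against 6.61 to 6.64 in the other WT libraries and 6.63 to 6.77 in the mutant libraries. Without it the medians were 0.10, 0.083 and 0.088 for the nuclear families, with 39, 18 and 8 genes higher, and −0.072 for the mitochondrially encoded mRNAs, with none lower. With other libraries left out, the ribosomal protein count ran from 8 (without mutant replicate 1) to 43 (without mutant replicate 2). The fit that took the unspliced-like share as a covariate gave medians of −0.0038, −0.047, −0.031 and 0.091. The share itself was lower in the mutant libraries, so that fit takes up part of any genotype difference. It cannot tell share and genotype apart.

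**Figure D4:**
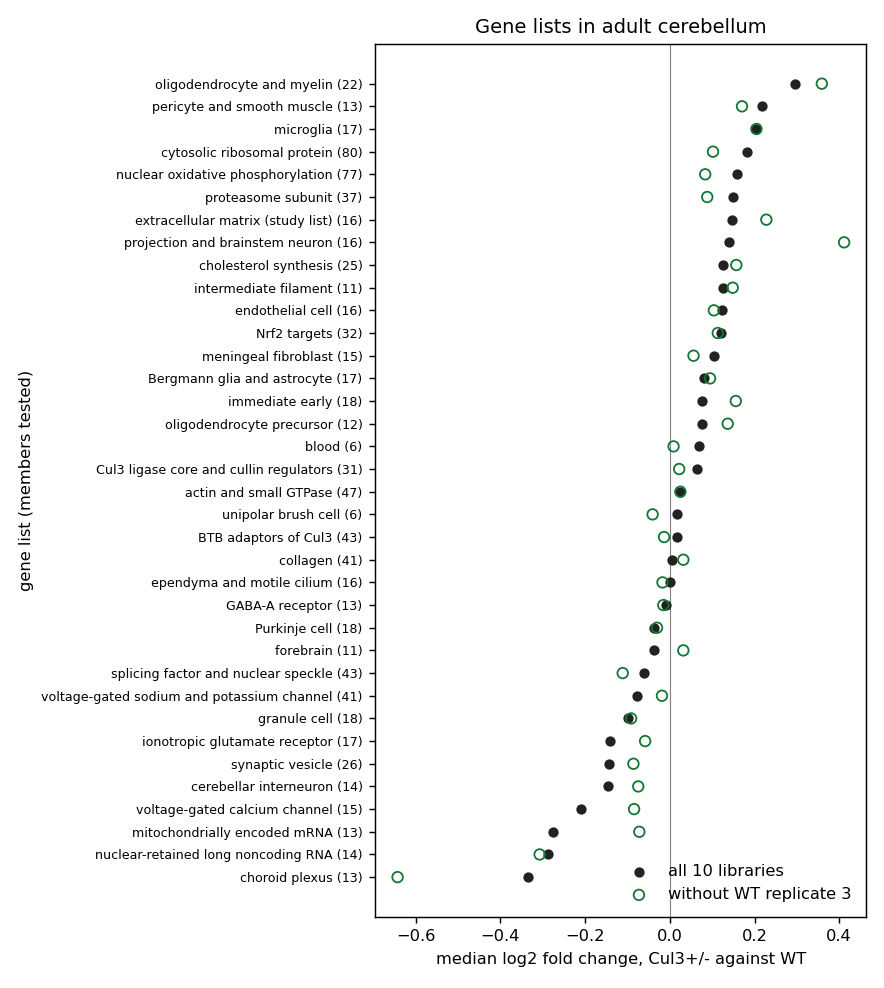
Median log2 fold change of Cul3+/- against WT (x axis) over the tested members of each gene list (y axis, number of members in brackets), with all 10 libraries (filled) and without WT replicate 3 (open). Oligodendrocyte and microglia medians stay at 0.30 and 0.20 or above without that library, while the ribosomal protein median goes from 0.18 to 0.10 and the calcium channel median from −0.21 to −0.085.

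With all 10 libraries, the direction of a protein-coding gene moved with its length. Of 1757 genes with a summed exon length under 2 kb, 15.8% were higher and 1.37% lower at an unadjusted p under 0.05 (median log2 fold change 0.12). Of 2649 genes of 8 kb and over, 1.93% were higher and 14.6% lower (median −0.079). The genes between fell in order, with 8.15% higher and 2.33% lower at 2 to 4 kb, and 4.27% higher and 5.61% lower at 4 to 8 kb. By the length of the whole gene, introns included, the medians ran from 0.063 under 10 kb to −0.065 at 300 kb and over. The length bins were not repeated without WT replicate 3. That library was the lowest WT library in the ribosomal protein list and the highest in the calcium channel list. How far the trend with length rests on it was not tested. The part of gene length in the differences of any list was not tested.

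**Figure D5:**
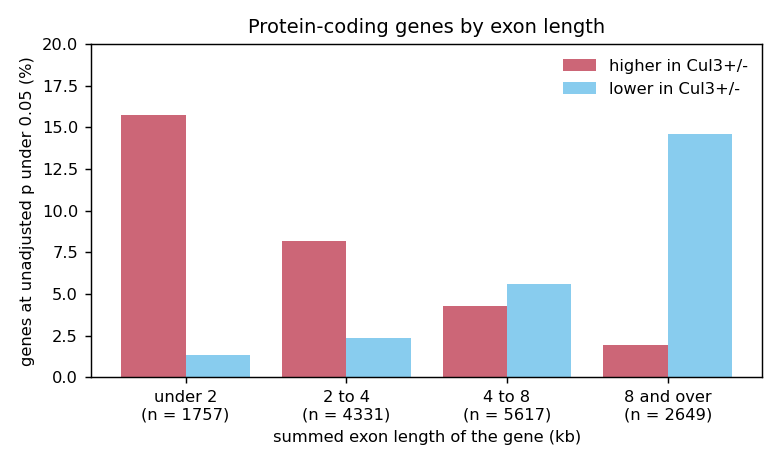
Percent of protein-coding genes higher or lower in Cul3+/- at an unadjusted p under 0.05 (y axis) by summed exon length in kb (x axis), with all 10 libraries, WT replicate 3 included. The higher share goes from 15.8% under 2 kb to 1.93% at 8 kb and over, and the lower share from 1.37% to 14.6%.

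Compared with CX and HIP of the same mice, 1339 of 19034 genes (7.03%) had a genotype effect in CB that differed at an adjusted p of 0.1 in the edgeR quasi-likelihood test of the interaction, 667 more positive and 672 more negative in CB. This count ran from 0 to 3188 when 1 mouse was left out, with 0 without WT replicate 2 or without mutant replicate 1, 3 or 6, 1 without WT replicate 3 and 3 without mutant replicate 5. At an unadjusted p under 0.05, 25.0% of genes differed. The median interaction of the unspliced-like genes was −0.66 and that of protein-coding genes 0.028. The log2 fold change of Cul3 was −0.94 in CX and −0.99 in HIP, and the interaction of 0.24 (SE 0.06) had an adjusted p of 0.0833 in this edgeR test. WT replicate 3, the lowest WT library for Cul3 in CB, is part of it.

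For the named genes, the values in CX and HIP stand beside those in CB, by which they were chosen, so their interactions are a description. Of the 12 higher genes 9 and of the 12 lower genes 5 passed the interaction test. Rgs4 was at −0.11 in CX and −0.12 in HIP (interaction 0.58, SE 0.09), Tmem204 at 0.04 and 0.09 (0.37), and Tmem119 at 0.0074 and 0.02 (0.45). None of the 12 higher genes passed an unadjusted p of 0.05 in CX or HIP. Over all genes tested, 364 of 17569 were higher in CX and 583 of 17123 in HIP at that p, against 977 of 17110 in CB. The oligodendrocyte and microglial lists had no higher member in the other regions: 0 of 22 oligodendrocyte genes were higher in CX and 0 in HIP (medians −0.077 and 0.041), and 0 of 17 microglial genes in either (−0.032 and −0.063). In lists of this size, no higher member is near the shares of all genes in CX and HIP. Oligodendrocyte precursors had 1 of 12 higher in each region, as in CB, and astrocytes 0 of 18 in either. Pericyte and smooth muscle genes had 1 of 12 higher in CX and 3 of 12 in HIP (medians 0.094 and 0.17), and endothelial genes 2 of 16 and 0 of 16. Cholesterol synthesis genes had 7 of 25 higher in HIP (0.12) and 0 of 26 in CX (0.066). Of the ribosomal protein genes 0 of 80 were higher in CX and 1 of 80 in HIP. These regions share mice with CB, and their lists were not tested against it.

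Compared with P7 CB, 6 WT and 6 mutant mice of the early postnatal period, 0 of 18613 genes (0%) had a genotype effect that differed at an adjusted p of 0.1 in the edgeR quasi-likelihood test of the interaction, while 2752 (14.8%) did at an unadjusted p under 0.05 and 11 by the likelihood ratio test. The median interaction of the unspliced-like genes was −0.73. Cul3 was at −0.83 in P7 CB, and its interaction of 0.13 (SE 0.07) did not pass. Of the 12 higher genes, 10 had the same sign at P7, and Zfp97 (0.71) and Wif1 (0.37) had an unadjusted p under 0.05 there. Of the lower genes, 4 of the 11 tested at P7 had the same sign, and of the 4 named unspliced-like genes 0 did. Over all 17532 genes tested at P7, 662 were higher and 195 lower at an unadjusted p under 0.05. By this criterion Nrf2 targets had 8 of 32 higher and 1 lower at P7, with a median of 0.018. The oligodendrocyte list had none of 22 higher (−0.067) and the microglial list none of 17 higher and 2 lower (−0.16), while 4 of 16 endothelial genes were higher (0.085).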

How the data were processed

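RNA of 10 adult cerebella, 5 WT and 5 Cul3+/-, was taken as ribodepleted, stranded total RNA libraries. Per the labels, the reads were trimmed with cutadapt 1.14, aligned with STAR 2.5.3a to GRCm38 and quantified per gene with RSEM 1.3. The authors deposited the RSEM expected counts of 53465 genes, unnormalized and unfiltered, of which 5.76% of values were not whole. Expected counts divide reads that match several models, so a read from an intron can be given to an unspliced-like gene or to an unspliced isoform of its host. Biotypes and lengths came from GENCODE M21 (53360 identifiers matched).

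Genotype was tested on the rounded counts with edgeR 4.0.16 under R 4.3.3 (filterByExpr with a minimum count of 10 and minimum total of 15, TMM scaling, quasi-likelihood F test, genotype as the only term, Benjamini-Hochberg adjustment over all 17110 genes, calls at 0.1). The SE was obtained from the fold change and the F statistic. CPM used the scaled library sizes, and log2 CPM a prior count of 2. The p-values measure the spread between mice. Region interactions had the mouse as a block over 30 adult libraries, and period interactions used 12 P7 libraries. Shares of counts were compared by the two-sided exact permutation test. In the named lists the members with the smallest p (up to 3) and the first 2 listed were named, and elsewhere Cul3, the 12 protein-coding genes higher and the 12 lower and the 4 unspliced-like genes of either direction with the smallest p among those at a mean of at least 1 CPM without overlap. Some members that the rule picked are not reported here. Rgs4, Nefh, Wif1 and Zfp97 were named from earlier results. The members and lists were chosen with earlier results of these data known.

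On simulated adult CB counts (17110 genes, 200 changed), the quasi-likelihood test recovered 8%, 56%, 70% and 94% of genes changed by 0.25, 0.5, 0.8 and 1 on the log2 scale and called 11 others, so small differences would mostly be missed. The simulated counts were drawn independently for each gene, without an outlying library such as WT replicate 3, so these rates need not hold for the measured libraries. There the test called none of the 995 unspliced-like genes, whose median was −0.59. Totals of 29148692 to 41106348 counts limit the precision of genes near 1 CPM. The alternatives were upper-quartile scaling, DESeq2 1.42.0, the likelihood ratio test, no low-count filter, protein-coding genes alone, RUVs with 3 factors, the replicate number as a block, the level of Xist or the unspliced-like share as a covariate, limma 3.58.1 voom with library weights, either genotype for the 2 mice left out, and each library left out. Those on counts by class and on leaving out mice from the interactions were added after seeing the data.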

Additional observations from a re-analysis of the deposited data

Results flagged for a closer look

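Most values that stood apart from their group belonged to WT replicate 3. In a group of 5 libraries a value was listed when its gap to its neighbour was more than 0.71 of the range of the group, which chance gives in about 1 of 20 groups, and 16 of 142 groups did so. WT replicate 3 scored 60.6 on the first principal component, had 5.94% of its counts in mitochondrial rRNA, and was the highest WT library in the mean log2 CPM of the granule cell (8.88) and calcium channel lists (6.68). It was the lowest in those of the Cul3 ligase core (5.63), ribosomal protein (6.22), oxidative phosphorylation (6.12) and proteasome lists (5.36). It had 85.0 CPM of Cabp7, against 72.1 to 74.9 CPM in the other WT libraries.

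WT replicate 2 was low in the oligodendrocyte list (5.61), and mutant replicate 2 was the lowest mutant library in the same list (6.46), in the microglial list (2.84) and in the ependymal list (0.74). Mutant replicate 5 was low in the immediate early list (2.71). Wif1 was at 6.27 CPM in mutant replicate 6 and Zbtb37 at 37.5 CPM in mutant replicate 2, each the highest of the mutant libraries.

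Several genotype effects in CB differed from those in CX and HIP of the same mice. For shares of counts, the difference (CB minus the mean of CX and HIP, mutant minus WT) was −0.0593 percentage points for unspliced-like genes, −0.0522 for TEC genes, −0.00719 for sense_intronic genes and −0.551 for lincRNAs, with exact permutation p of 0.0397, 0.0317, 0.0397 and 0.0397. Across genes, 1339 interactions passed, a count that fell to 0 without WT replicate 2 and without mutant replicate 1, 3 or 6.

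Among the named genes, which were chosen on the CB values that enter these interactions, the log2 fold change in CB was above the mean of those in CX and HIP by 0.24 for Cul3, whose fall was thus smaller in CB, by 0.37 for Tmem204, 0.58 for Rgs4, 0.45 for Tmem119, 0.49 for Lpar1, 0.30 for Cabp7, 0.24 for Fbxo2, 0.40 for Col4a6, 0.66 for Zfp97 and 0.56 for Tnfaip6. The interaction was −0.55 for Xkr6, −0.65 for Slc25a35, −0.31 for Syne2, −0.33 for Zbtb37, −0.51 for D10Wsu102e and −0.81 for the TEC gene Gm37420. The adjusted p of Rgs4 was 0.0200 and the others lay between 0.0831 and 0.0956 (edgeR quasi-likelihood test with Benjamini-Hochberg adjustment).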

How the results depend on the processing

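The fall of Cul3 kept its direction under all 22 alternatives, with log2 fold changes of −0.795 to −0.702 with 1 library left out. The 995 unspliced-like genes kept a negative median under each of these fits that holds them (all but that of protein-coding genes alone; −0.675 to −0.489 with 1 library left out), which came down to −0.011 when their own share was a covariate, as that fit is built to do.

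The number of genes called over all classes (1) was 218 with DESeq2, 150 with the likelihood ratio test, 68 with RUVs and 596 with voom and library weights. It was 2 with the label genotypes of the mice left out (Cul3 and Tmem204), 0 with the quality-table genotypes and 1 to 6 with 1 library left out, 6 without mutant replicate 2 and 2 without mutant replicate 5. With the quality-table genotypes the log2 fold change of Cul3 was −0.44 (adjusted p = 0.569, edgeR), which that assignment brings about by placing 1 library of either Cul3 level in each group.

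Protein-coding genes higher at an unadjusted p under 0.05 (921) were 174 with the share covariate, 1586 with voom, 585 with the quality-table genotypes and 542 to 1198 with 1 library left out (542, 593 and 562 without mutant replicates 1, 3 and 6). Those lower (826) were 326 with RUVs, 81 with the share covariate, 1287 with the label and 375 with the quality-table genotypes, and 329 to 1278 with 1 library left out (500, 505 and 1278 without WT replicates 3, 5 and 6, and 329, 347 and 391 without mutant replicates 1, 3 and 6). Unspliced-like genes lower (519) were 281 with RUVs, 9 with the share covariate, 291 with the quality-table genotypes and 403 to 591 with 1 library left out. DESeq2's calls turned on single libraries: 10 to 268 protein-coding genes higher, 3 to 266 lower and 7 to 262 unspliced-like genes lower, with the fewest without mutant replicate 3 or 6 and the most without mutant replicate 2. The cause of these shifts was not tested. The share covariate differs between the genotypes and so takes up part of their difference. The quality-table genotypes mix the Cul3 levels within groups.

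The difference in the unspliced-like share was −0.0634 to −0.0456 percentage points with 1 library left out. The labels give adjacent mouse numbers to the adult mice of a replicate number but do not say that they shared a litter, batch or day. The numbers were not taken to pair the libraries in the main comparison. In their deviations from the group means, 1 of 5 same-numbered pairs correlated below 0.1. The correlations ran from −0.028 to 0.167 with a median of 0.162, against −0.028 over other pairs, and 3 of 5 WT libraries correlated best with their own number, a hint of pairing from the data. With the replicate number as a block, 0 genes were called, Cul3 was at −0.73 (adjusted p = 0.114, edgeR) and the share at −0.0551 (exact p = 0.0625, the smallest that 5 pairs allow, lower in 5 of 5 pairs). The region interactions (1339) were 2145 with the likelihood ratio test, 638 with no low-count filter and 0 to 3188 with 1 mouse left out (3043 and 3188 without WT replicate 1 and mutant replicate 2). The P7 interactions (0) were 11 with the likelihood ratio test and 0 to 1 with 1 adult mouse left out.

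Of 3884 values for 177 named genes, 3677 kept their direction and side of the threshold, 198 newly passed it and 9 changed sign with an unadjusted p under 0.05 in either fit. Under the share covariate Bsn was at 0.25, Pclo at 0.0087, Vamp2 at 0.13, Grin1 at 0.052, Cacna1a at 0.061, Cacna1b at 0.063 and Syn1 at 0.17. Nefm was at 0.22 with RUVs and Srsf2 at −0.14 with voom. Another 156 values changed sign with larger p in both fits. Genes near 1 CPM and differences near 0.25 on the log2 scale are at the limit of this depth and number of mice.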
